A study of Rattus norvegicus with 60 samples.

Results

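Arc, Homer1 and Baiap2 encode proteins of the dendritic spine, the small protrusion of a neuron that receives an excitatory synapse. Their RNA levels were followed array by array in rats given LiCl or lamotrigine, over every probe set that the array annotation assigns to exactly 1 of the 3 symbols. These are 3 of the 14217 genes with a probe set of their own, and the rule gave 9 of the 31042 probe sets tested, with 1 for Arc (1387068_at), 5 for Homer1 (1368318_at, 1368319_a_at, 1370454_at, 1370656_a_at and 1370997_at) and 3 for Baiap2 (1370074_at, 1373081_at and 1374117_at). Another probe set names Homer1 together with a second gene and was not used. The 3 genes were chosen from values of LiCl against chow vehicle in the hippocampus and the cortex, so those 2 comparisons are given as a description, with no p-value, and where the members limma called in them are counted, the counts follow from that choice and support nothing. Lamotrigine, LiCl in the striatum, the 2 vehicles and the regions were not the comparisons the genes were chosen from and were tested. The members were nevertheless chosen with earlier results of these data known.

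Rats of the strain labelled SD, for which no allele or transgene is named, were treated for 21 days. LiCl made up 0.2% of the chow and was compared with vehicle chow (chow vehicle), and lamotrigine, at 30 mg/kg, was injected under the skin once a day and compared with injected vehicle (injection vehicle). Striatum, cortex and hippocampus were profiled on 60 arrays, 5 in each of the 12 groups. Numbers in the sample descriptions were read as animal numbers: the 10 animals of the injection arm gave all 3 regions, while hippocampus numbers of chow animals match the other regions only in part. One label names mouse tissue and a constant delivery. Organism, strain and array are those of the rat, and the title and design text give chow and daily injection, which were used here. Levels below are log2 of the deposited intensity, which do not rank 1 probe set against another, and differences are on the same scale with the SE of the fit.

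Arc is an immediate early gene: neuronal activity induces its RNA, which travels into dendrites, and its protein binds endophilin and dynamin and speeds the removal of AMPA receptors from the synapse. Homer1 is a scaffold that ties metabotropic glutamate receptors to inositol trisphosphate receptors and to the Shank proteins of the postsynaptic density. The gene makes long forms, which multimerize, and short forms induced by activity, which lack the multimerizing part and compete with the long ones. Baiap2 (IRSp53) bends membrane and links the small GTPases Cdc42 and Rac to actin regulators such as the WAVE complex and Eps8. The array annotation links each probe set to a sequence record, but no source used here says whether that record is a long or a short form of Homer1. The probe sets are therefore named by their identifiers.

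In the RefSeq annotation of the rat genome (build GRCr8), Arc lies on chromosome 7 (108444959 to 108448413), Homer1 on chromosome 2 (26279012 to 26388279, with 3 transcripts listed) and Baiap2 on chromosome 10 (105721371 to 105788549, with 7 transcripts listed). The 5 Homer1 probe sets share 1 annotated gene start, and the bases just before it are shown for that reason, with those of Baiap2 beside them. Both were taken from the RefSeq promoter table, on the plus strand, up to the first annotated base of the gene. They cover 250 bases of Homer1 (chr2:26278762-26279011, 46.4% G or C) and 65 bases of Baiap2 (chr10:105721306-105721370, 64.6% G or C). Capitals mark a match to 1 of 4 short motifs on either strand.
Homer1: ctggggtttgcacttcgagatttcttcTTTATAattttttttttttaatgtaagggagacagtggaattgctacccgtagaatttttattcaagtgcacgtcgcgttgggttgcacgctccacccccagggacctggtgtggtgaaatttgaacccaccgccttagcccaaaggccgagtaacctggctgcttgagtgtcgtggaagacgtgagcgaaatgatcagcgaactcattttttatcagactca
Baiap2: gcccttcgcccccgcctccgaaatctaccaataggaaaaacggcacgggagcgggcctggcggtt
The motifs were the cAMP response element half-site TGACG, the TATA box TATAAA, the GC box GGGCGG and the E-box CACGTG, none of which contains another. The first 250 bases of all 33469 promoters of the table held them in 18.2%, 12.9%, 30.5% and 5.59% of cases. Homer1 had 1 match, to the TATA box on the minus strand, 223 bases before the gene start. The Baiap2 window of the table is 250 bases long and reaches past the first annotated base; it had 1 TATA box and 4 GC boxes, all in the part not shown. These matches describe letters only.

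All arrays had similar overall brightness, with median intensities of 93.5 to 101 per array, and no array repeated another. The labelled regions matched their markers: 7 striatal genes of the 8 listed averaged 11.7 to 12.3 in striatum arrays, against 7.06 to 7.71 in cortex and 6.80 to 7.32 in hippocampus arrays. Even so, 3 striatum arrays were below 12 (LiCl replicate 3 at 11.68, lamotrigine replicate 2 at 11.86 and injection vehicle replicate 4 at 11.93). Choroid plexus genes (8 of 10 measured) averaged 7 or more in 4 hippocampus arrays (LiCl replicate 2, injection vehicle replicates 1 and 3, chow vehicle replicate 5) and 5 striatum arrays (LiCl replicates 1 and 2, lamotrigine replicates 3 and 5, injection vehicle replicate 2), against 5.20 to 6.98 in the cortex. Values without these arrays are given where a call changed and for the main results they touch.

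Arc was higher with LiCl in the striatum, by 1.02 ± 0.31 (2.03-fold), and in the hippocampus, by 0.79 ± 0.15 (1.73-fold), but differed by only 0.02 ± 0.25 in the cortex. The hippocampus and cortex values are those the gene was chosen from, and the striatum difference did not pass the test (limma, adjusted p = 0.238). Nothing beyond the numbers in the descriptions says that the arrays of a group came from separate animals, so p-values measure the spread between these arrays. In the hippocampus the LiCl arrays read 9.08, 9.09, 9.25, 9.59 and 9.60, against 8.59, 8.55, 8.61, 8.46 and 8.43 in the chow vehicle arrays. Every LiCl array lay above every chow vehicle array there, and the LiCl arrays were also more spread (SD 0.259 against 0.0811). In the cortex the LiCl arrays read 9.32, 9.10, 9.47, 10.0045 and 10.15, against 9.62, 9.81, 9.88, 9.25 and 9.37 in the chow vehicle arrays. The cortex groups overlapped, with 2 LiCl arrays above all chow vehicle arrays and 1 below them all. In bulk tissue, a change in the share of cells that express a gene and a change in RNA per cell cannot be told apart.

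The striatum gave the widest Arc values with LiCl, 9.15, 9.43, 9.20, 10.26 and 10.26, against 8.75, 8.68, 8.67, 8.55 and 8.55 with chow vehicle. The groups did not overlap, and the 2 highest values came from animals 36 and 37. Those animals also had the 2 highest LiCl values in the cortex, while in the hippocampus they read 9.09 and 9.25 and the highest values came from animals 38 and 39, which have no array of the other regions. The 95% interval of the striatum difference ran from 0.38 to 1.66. The difference was 1.14 (adjusted p = 0.19) without the arrays low in striatal markers and 1.27 (adjusted p = 0.522) without those high in choroid plexus genes. One fit of all 60 arrays with the animal as a block gave 1.04 and an adjusted p of 0.0389, so the call depends on the fit.

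**Figure D1:**
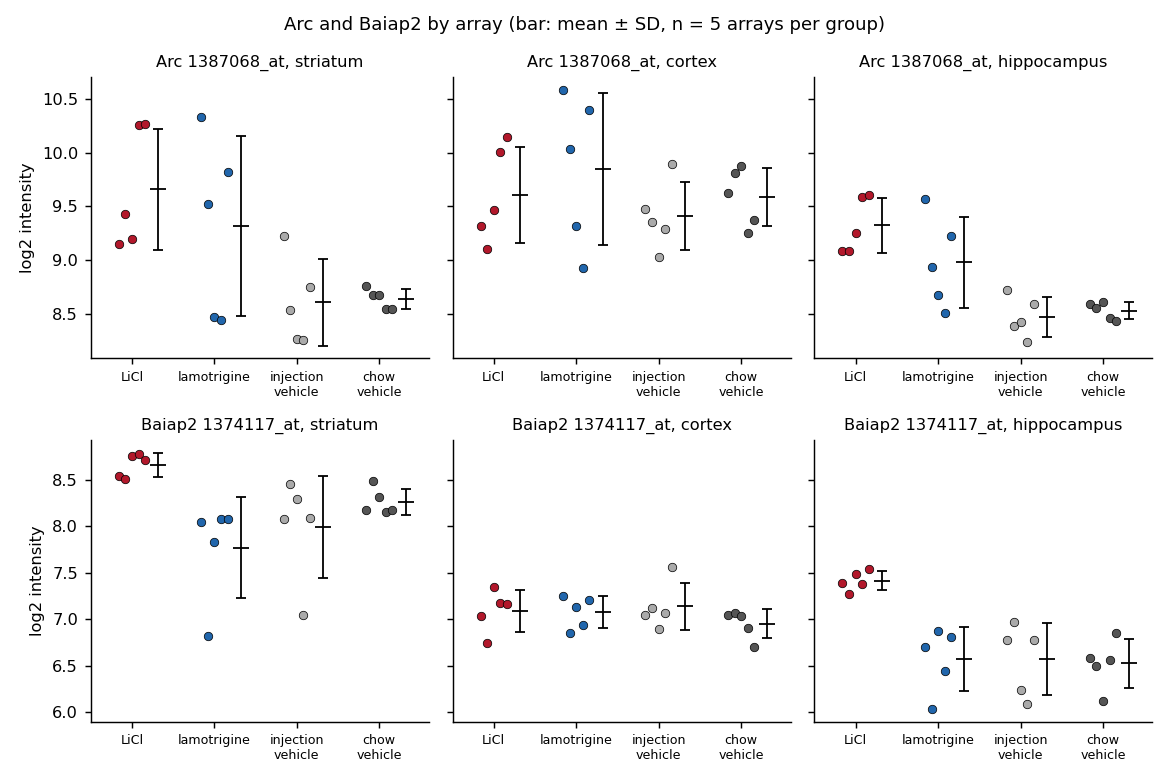
Log2 intensity of Arc 1387068_at (upper row) and Baiap2 1374117_at (lower row) in striatum, cortex and hippocampus, with 1 point per array and the mean ± SD of 5 arrays beside each group. LiCl points lie above all chow vehicle points in the striatum and hippocampus for both probe sets, while the groups overlap in the cortex. Hippocampus and cortex are the comparisons the genes were chosen from. Baiap2 1374117_at was drawn because it was called for LiCl in the hippocampus, so its separation there follows from that choice. For 1370074_at and 1373081_at, not drawn, these groups overlapped in the striatum and hippocampus.

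With lamotrigine, Arc was on average higher than with injection vehicle in all 3 regions, and none of the differences passed the test. In the striatum the lamotrigine arrays read 10.33, 9.53, 8.47, 8.44 and 9.82, against 9.22, 8.53, 8.26, 8.26 and 8.75 in the injection vehicle arrays. In the cortex the lamotrigine arrays read 10.59, 10.03, 9.32, 8.92 and 10.39, against 9.48, 9.36, 9.03, 9.29 and 9.89 in the injection vehicle arrays. Hippocampus values were 9.57, 8.93, 8.67, 8.51 and 9.22 with lamotrigine, against 8.72, 8.39, 8.43, 8.24 and 8.59 with injection vehicle. In each region 3 lamotrigine arrays lay above all injection vehicle arrays and the other 2 lay among or below them. The differences were 0.71 ± 0.31 in the striatum (adjusted p = 0.997), 0.44 ± 0.25 in the cortex (adjusted p = 0.869) and 0.51 ± 0.15 in the hippocampus (adjusted p = 0.279), and 3, 3 and 5 of the 5 lamotrigine arrays lay above the injection vehicle mean. Their 95% intervals were 0.07 to 1.35, -0.08 to 0.96 and 0.19 to 0.82. The intervals are for single probe sets, not adjusted over the probe sets tested. Without the arrays low in striatal markers the striatum difference was 0.57 (adjusted p = 0.785), and without those high in choroid plexus genes the differences were 0.81 (adjusted p = 0.999) in the striatum and 0.57 (adjusted p = 0.436) in the hippocampus.

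The lamotrigine animals kept 1 order of Arc in all 3 regions, since animal 10 was highest, followed by 9, 11, 13 and 14. Animal 10 read 10.33 in the striatum, 10.59 in the cortex and 9.57 in the hippocampus, and animal 14 read 8.44, 8.92 and 8.51. Among injection vehicle animals the order was not the same in the 3 regions: animal 25 was highest in the striatum (9.22) and hippocampus (8.72) and animal 29 in the cortex (9.89). The SD of the lamotrigine group was 0.84, 0.709 and 0.425 in striatum, cortex and hippocampus, against 0.403, 0.316 and 0.186 with injection vehicle. A difference in spread was not tested. The lamotrigine effect on Arc did not pass a test for a difference between regions (limma F = 0.299, adjusted p = 1.00), a test that called 0% of all probe sets.

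**Figure D2:**
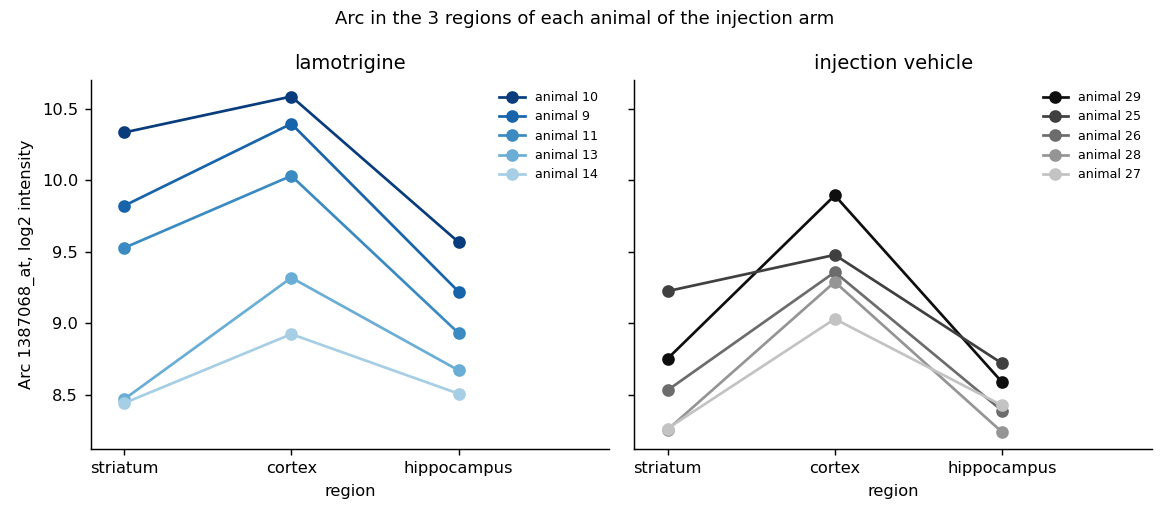
Log2 intensity of Arc 1387068_at in the striatum, cortex and hippocampus of each animal of the injection arm, with lamotrigine on the left and injection vehicle on the right and 1 line per animal. The lines of the 5 lamotrigine animals do not cross, from animal 10 at the top to animal 14 at the bottom.

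Between the vehicles no Arc difference exceeded its error. Injection vehicle minus chow vehicle was -0.03 ± 0.31 in the striatum (adjusted p = 0.97), -0.18 ± 0.25 in the cortex (adjusted p = 0.686) and -0.06 ± 0.15 in the hippocampus (adjusted p = 0.83). The LiCl and injection vehicle comparisons share the chow vehicle arrays, and the lamotrigine and injection vehicle comparisons share the injection vehicle arrays. Ordered by group mean, Arc was highest in the cortex of lamotrigine rats (9.85) and lowest in the hippocampus of injection vehicle rats (8.47). Neighbouring groups in the cortex (lamotrigine 9.85, LiCl 9.61, chow vehicle 9.59, injection vehicle 9.41) differed by less than the SD of either, as did striatum groups with LiCl (9.66) and lamotrigine (9.32) or with chow vehicle (8.64) and injection vehicle (8.61).

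Genes whose proteins act with Arc were counted from a fixed list of 18 measured genes (of 20), 1 probe set per gene. For LiCl in the striatum and for lamotrigine in all 3 regions, limma called 0 of them, with 4 (LiCl, striatum), 1 (lamotrigine, striatum), 1 (lamotrigine, cortex) and 2 (lamotrigine, hippocampus) at an unadjusted p under 0.05. Their median difference with lamotrigine was -0.07, -0.01 and 0.06 in striatum, cortex and hippocampus, against 0.02, 0.01 and -0.00346 over all genes. More moved between the vehicles, with 6 of 18 called in the striatum (3 higher and 3 lower with injection vehicle, against 5.72% of all genes), 8 of 18 called in the cortex (3 higher and 5 lower) and 8 of 18 in the hippocampus (2 higher and 6 lower), against 18.5% and 16.5% of all genes. Camk2a, the alpha subunit of the calcium/calmodulin kinase of spines, was higher with injection vehicle by 1.14 ± 0.27 in the striatum (adjusted p = 0.0108), 1.79 ± 0.37 in the cortex (adjusted p = 0.00133) and 2.01 ± 0.29 in the hippocampus (adjusted p = 4.21e-05). Cacng8, an auxiliary subunit of AMPA receptors, was lower by 0.74 ± 0.21, 0.71 ± 0.12 and 0.68 ± 0.16 in the same regions (adjusted p = 0.0404, 0.000251 and 0.0053). Sh3gl1, an endophilin, was lower in the cortex by 0.51 ± 0.06 and in the hippocampus by 0.26 ± 0.05 (adjusted p = 6.38e-06 and 0.000499).

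Homer1 was lower with LiCl in the cortex on 4 of its 5 probe sets, by 0.27 to 0.88, while its differences in the hippocampus were within -0.20 to 0.21. These are the values Homer1 was chosen from, and nothing is read from their count. LiCl in the cortex called 4 of the 9 members, all lower, beside 13.4% of all probe sets (8.2% lower). Probe set 1370656_a_at read 9.20, 9.10, 9.21, 9.45 and 9.36 with LiCl, against 9.80, 9.72, 9.81, 9.78 and 9.51 with chow vehicle. Its groups did not overlap, and the LiCl arrays also lay below all 10 cortex arrays of the injection arm. The difference was -0.46 ± 0.07 (1.37-fold lower).

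Probe set 1370997_at showed the widest difference, -0.88 ± 0.20 (1.84-fold lower), and the widest LiCl spread. Its LiCl cortex arrays read 8.83, 8.48, 8.36, 9.57 and 9.59, against 9.73, 9.90, 10.16, 9.64 and 9.79 in the chow vehicle arrays. The groups did not overlap, but the 2 LiCl arrays of animals 36 and 37, the animals highest in Arc, lay only just below the lowest chow vehicle array. Probe set 1368319_a_at read 7.57, 7.50, 7.53, 7.94 and 7.69 with LiCl, against 8.19, 8.35, 8.32, 8.25 and 7.66 with chow vehicle, a difference of -0.51 ± 0.12. Only chow vehicle replicate 5 reached into the LiCl range there. The Homer1 probe set with the highest mean over all 60 arrays, 1368318_at, read 10.42, 10.31, 10.53, 10.70 and 10.54 with LiCl, against 10.78, 10.82, 10.96, 10.70 and 10.58 with chow vehicle, a difference of -0.27 ± 0.07 with overlap. The remaining one, 1370454_at, read 10.80, 10.94, 10.57, 11.35 and 10.95 with LiCl, against 10.97, 11.14, 11.26, 10.80 and 10.98 with chow vehicle, and differed by -0.11 ± 0.13.

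**Figure D3:**
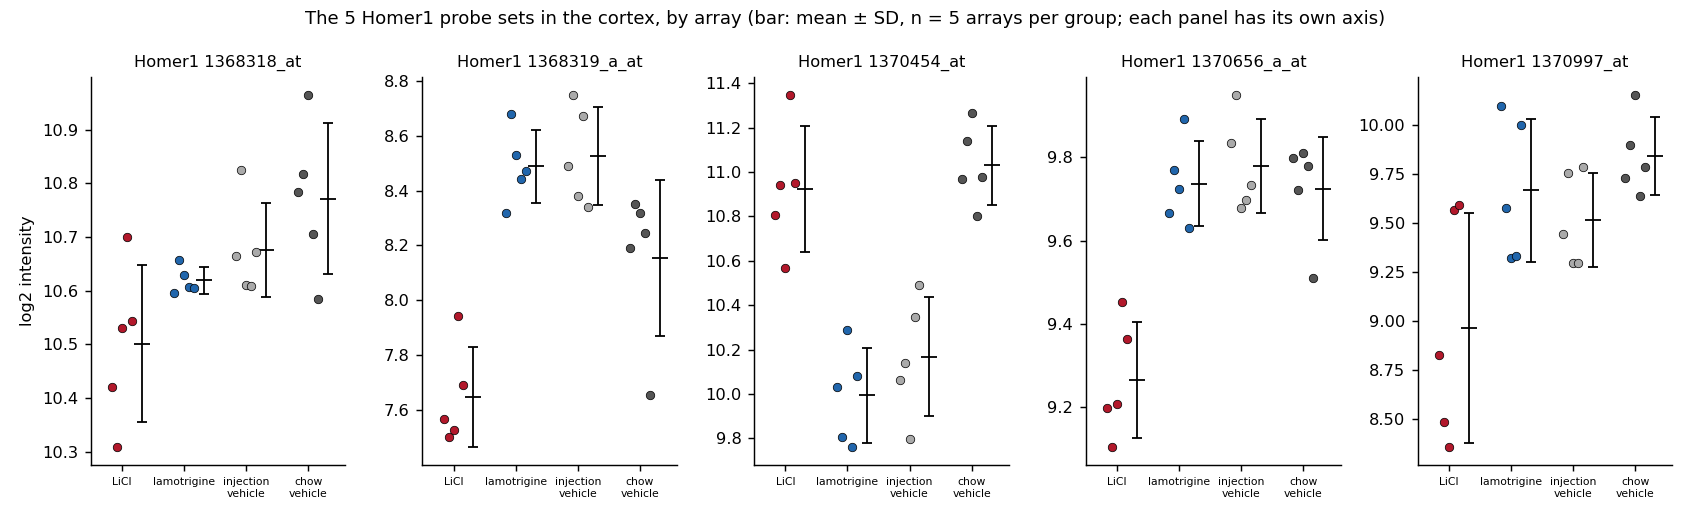
Log2 intensity of the 5 Homer1 probe sets in the cortex, with 1 point per array, the mean ± SD of 5 arrays beside each group and a separate axis in each panel. In 1370656_a_at and 1370997_at all LiCl points lie below all chow vehicle points, and in 1370454_at the lamotrigine and injection vehicle points lie below the LiCl and chow vehicle points.

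The LiCl cortex arrays also stood apart from the chow vehicle arrays, with no overlap, in 4 other measures. The interquartile range of all log2 values was 3.29 to 3.44 in the LiCl arrays, against 3.56 to 3.61 in the chow vehicle arrays, and with this range as a covariate 0 of the 9 members were called, as were 0 of all probe sets. The 4 Homer1 differences were then -0.31 (1368318_at), -0.40 (1368319_a_at), -0.41 (1370656_a_at) and -1.71 (1370997_at). The Arc difference in the cortex, 0.02 without the covariate, was -1.27 with it. Cortex marker genes (5 of 6 measured) averaged 8.39 to 8.45 with LiCl, against 8.68 to 8.85 with chow vehicle. Hippocampus markers (4 of 6 measured) averaged 6.48 to 6.66 with LiCl, against 6.32 to 6.45 with chow vehicle, and choroid plexus genes 5.51 to 6.03 with LiCl, against 5.20 to 5.40 with chow vehicle. The part of the arrays' spread and of the tissue's makeup in these Homer1 values was not tested further.

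In the hippocampus 1368318_at read 9.86, 9.90, 9.98, 9.83 and 9.90 with LiCl, against 10.03, 9.87, 9.89, 9.98 and 9.82 with chow vehicle, and 1370997_at read 6.83, 7.74, 7.93, 7.69 and 8.56 with LiCl, against 8.24, 8.12, 7.92, 7.78 and 7.18 with chow vehicle. Both pairs of groups overlapped, 1370997_at with a LiCl array on each side of the chow vehicle range. The Homer1 differences with LiCl there ran from -0.20 ± 0.11 (1368319_a_at) to 0.21 ± 0.15 (1370454_at), and all 5 probe sets overlapped between the groups.

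LiCl in the striatum was not among the comparisons Homer1 was chosen from. Probe set 1368318_at read 10.57, 10.58, 10.11, 11.13 and 10.86 with LiCl there, against 10.73, 10.77, 10.82, 10.77 and 10.77 with chow vehicle. The LiCl arrays lay on both sides of the narrow chow vehicle range, with replicate 3, the array lowest in striatal markers, at the bottom. The same array was the lowest for 1370656_a_at, which read 9.40, 9.43, 8.61, 10.05 and 9.77 with LiCl, against 9.66, 9.62, 9.53, 9.61 and 9.63 with chow vehicle, and for 1368319_a_at, which read 7.77, 7.83, 6.97, 8.22 and 8.14 with LiCl, against 8.03, 8.40, 7.85, 7.91 and 8.09 with chow vehicle. For 1370454_at the values were 9.42, 9.42, 8.90, 10.64 and 9.75 with LiCl, against 9.11, 9.21, 9.60, 9.09 and 8.85 with chow vehicle, and here LiCl replicate 4 (animal 36) stood above all others. Limma called none of the 5 probe sets, and 0 of them had an unadjusted p under 0.05. The differences there were -0.12 ± 0.12 (1368318_at, adjusted p = 0.705), -0.27 ± 0.18 (1368319_a_at, adjusted p = 0.541), -0.16 ± 0.17 (1370656_a_at, adjusted p = 0.718), 0.45 ± 0.26 (1370454_at, adjusted p = 0.477) and -0.03 ± 0.44 (1370997_at, adjusted p = 0.984). Without the arrays low in striatal markers they were 0.01, -0.07, 0.05, 0.64 and 0.23 in the same order, and without those high in choroid plexus genes -0.07, -0.28, -0.13, 0.59 and 0.48, again with 0 called. The large error of 1370997_at came with LiCl values of 7.52, 7.23, 7.10, 9.56 and 9.27, against 8.05, 8.46, 8.32, 8.35 and 7.64 with chow vehicle. The LiCl arrays lay on both sides of the chow vehicle arrays, with 2 above and 3 below, and animals 36 and 37 were again the high ones.

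Lamotrigine left all 5 Homer1 probe sets uncalled in the 3 regions. Probe set 1368318_at read 10.81, 10.45, 10.51, 10.67 and 10.52 with lamotrigine, against 10.70, 10.83, 10.90, 10.55 and 10.82 with injection vehicle in the striatum. It read 10.60, 10.66, 10.63, 10.61 and 10.61 with lamotrigine, against 10.66, 10.82, 10.61, 10.61 and 10.67 with injection vehicle in the cortex, and 9.96, 9.96, 10.12, 10.11 and 9.98 with lamotrigine, against 10.15, 10.04, 9.98, 9.94 and 9.82 with injection vehicle in the hippocampus. All 3 pairs overlapped, and the cortex values with lamotrigine were the closest together. Over the 15 comparisons of a Homer1 probe set in a region the difference was between -0.35 ± 0.26 (1370454_at, striatum) and 0.48 ± 0.26 (1370997_at, hippocampus, adjusted p = 0.557). The 95% interval of 1368318_at reached from -0.43 to 0.10 in the striatum, -0.19 to 0.08 in the cortex and -0.08 to 0.16 in the hippocampus. In the striatum 1370997_at read 9.34, 7.83, 7.32, 8.05 and 9.25 with lamotrigine, against 8.38, 8.03, 8.26, 7.37 and 8.34 with injection vehicle. In the cortex it read 10.10, 9.58, 9.32, 9.33 and 10.0002 with lamotrigine, against 9.45, 9.76, 9.30, 9.30 and 9.79 with injection vehicle, and in the hippocampus 8.04, 7.36, 7.79, 8.13 and 8.22 with lamotrigine, against 7.98, 7.76, 7.20, 7.09 and 7.12 with injection vehicle. The 2 high arrays of the striatum and of the cortex were those of animals 10 and 9, which were also the highest in Arc; in the hippocampus the highest was that of animal 9.

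The remaining Homer1 probe sets also overlapped between lamotrigine and injection vehicle in every region. Probe set 1370454_at read 9.26, 8.39, 8.29, 8.56 and 9.26 with lamotrigine, against 9.23, 9.02, 9.09, 8.63 and 9.54 with injection vehicle in the striatum. It read 10.03, 9.81, 10.29, 9.76 and 10.08 with lamotrigine, against 10.06, 10.14, 9.80, 10.35 and 10.49 with injection vehicle in the cortex and 8.63, 8.41, 8.90, 8.79 and 8.88 with lamotrigine, against 8.89, 8.93, 8.46, 8.50 and 8.84 with injection vehicle in the hippocampus. Differences were -0.35 ± 0.26, -0.17 ± 0.13 and -0.01 ± 0.15 in the 3 regions (adjusted p = 0.997, 0.905 and 0.996). For 1368319_a_at they were -0.27 ± 0.18, -0.04 ± 0.12 and 0.08 ± 0.11, and for 1370656_a_at -0.25 ± 0.17, -0.04 ± 0.07 and 0.00 ± 0.09. All 5 lamotrigine arrays of these last 2 probe sets lay below the injection vehicle mean in the striatum.

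Between the vehicles, in contrast, some Homer1 probe sets were called, in opposite directions. The probe set with the highest mean, 1368318_at, was called in no region. It differed by -0.01 ± 0.12 in the striatum, -0.10 ± 0.07 in the cortex and 0.07 ± 0.06 in the hippocampus (limma, adjusted p = 0.974, 0.355 and 0.411). Also uncalled was 1370997_at, at -0.09 ± 0.44, -0.33 ± 0.20 and -0.42 ± 0.26 (adjusted p = 0.943, 0.293 and 0.263). In the hippocampus 1368319_a_at rose with injection vehicle by 0.65 ± 0.11 (1.57-fold, adjusted p = 0.000168) and 1370656_a_at by 0.39 ± 0.09 (1.31-fold, adjusted p = 0.00355), while 1370454_at fell by 0.63 ± 0.15 (adjusted p = 0.00424). Probe set 1368319_a_at read 7.92, 8.11, 7.81, 7.79 and 7.50 in injection vehicle arrays, against 7.24, 7.12, 7.14, 7.30 and 7.07 in chow vehicle arrays. Probe set 1370454_at read 8.89, 8.93, 8.46, 8.50 and 8.84 in injection vehicle arrays, against 9.79, 9.19, 9.55, 9.30 and 8.94 in chow vehicle arrays. Neither pair of groups overlapped, nor did those of 1370656_a_at, which read 9.25, 9.51, 9.0005, 9.06 and 8.99 with injection vehicle, against 8.90, 8.73, 8.87, 8.68 and 8.71 with chow vehicle. With the interquartile range of each array as a covariate the call of 1370454_at was lost (-0.24, adjusted p = 0.722), while the other 2 stayed called (with arrays high in choroid plexus genes left out all 3 did, at 0.60, 0.39 and -0.70 for 1368319_a_at, 1370656_a_at and 1370454_at, with adjusted p = 0.00613, 0.0236 and 0.00705); that range was 3.55 to 3.64 in injection vehicle arrays, against 3.43 to 3.56 in chow vehicle arrays.

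The same pair of opposite changes was called in the cortex. Probe set 1370454_at fell there by 0.86 ± 0.13 (1.82-fold lower, adjusted p = 7.05e-05), with 10.06, 10.14, 9.80, 10.35 and 10.49 in injection vehicle arrays, against 10.97, 11.14, 11.26, 10.80 and 10.98 in chow vehicle arrays. Probe set 1368319_a_at rose by 0.37 ± 0.12 (1.30-fold, adjusted p = 0.0256), with 8.49, 8.75, 8.38, 8.67 and 8.34 against 8.19, 8.35, 8.32, 8.25 and 7.66. The groups of 1370454_at were well apart, whereas 1368319_a_at overlapped and lost its call without injection vehicle replicate 2 (adjusted p = 0.0719), without injection vehicle replicate 4 (0.0647) or without chow vehicle replicate 5 (0.0806), and in the fit of all 60 arrays (0.0566). In the striatum no Homer1 probe set was called, although 1368319_a_at had a difference of 0.38 ± 0.18 (adjusted p = 0.239) that passed without the arrays low in striatal markers (0.48, adjusted p = 0.0131). Delivery route and any other difference between the 2 arms of the study cannot be told apart here, since no animal number occurs in both.

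Over all 9 members, injection vehicle against chow vehicle called 0 in the striatum, 3 in the cortex and 4 in the hippocampus, beside 6.83%, 18.9% and 18.5% of all probe sets. In each of these 7 calls all 5 injection vehicle arrays lay on the same side of the chow vehicle mean. In the striatum 2 members had an unadjusted p under 0.05 between the vehicles, beside 6289 of all 31042 probe sets. LiCl in the striatum called 0 members and 0% of all probe sets (3828 at an unadjusted p under 0.05, among them Arc alone of the members). Lamotrigine called 0 members in each region, against 0% of probe sets in the striatum, 0% in the cortex and 0.00322% in the hippocampus. At an unadjusted p under 0.05 lamotrigine had 1 member in the striatum and 1 in the hippocampus, both times Arc, and 0 in the cortex. Over all probe sets the numbers were 1193, 3063 and 1799 in the same order.

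**Figure D4:**
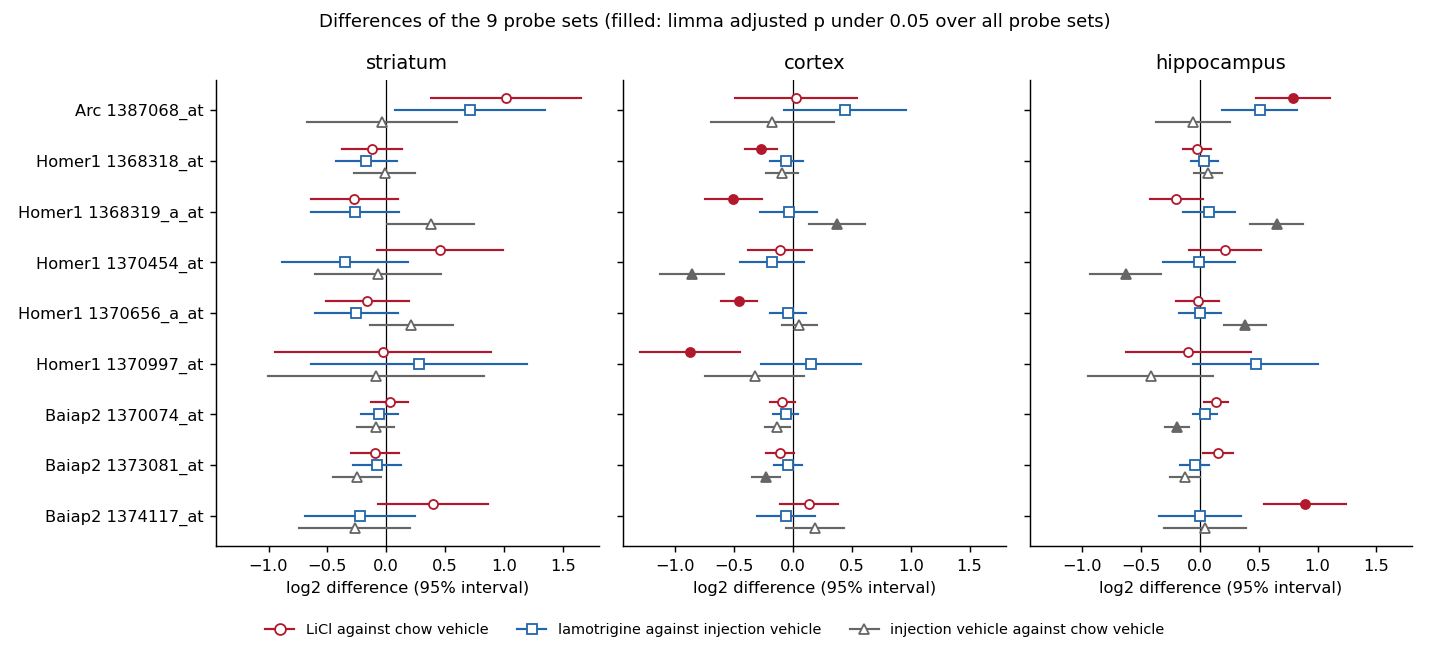
Log2 difference with its 95% interval for the 9 probe sets in striatum, cortex and hippocampus, with circles for LiCl against chow vehicle, squares for lamotrigine against injection vehicle and triangles for injection vehicle against chow vehicle; filled symbols passed an adjusted p under 0.05 over all probe sets. The filled circles in cortex and hippocampus are the values the genes were chosen from, and no square is filled.

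Of 18 measured genes listed as Homer partners (of 19), limma called 0 for LiCl in the striatum and 0 for lamotrigine in every region. At an unadjusted p under 0.05 there were 1 for LiCl and 0 (striatum), 2 (cortex) and 2 (hippocampus) for lamotrigine. Over all 31042 probe sets there were 3828 for LiCl and 1193, 1799 and 3063 for lamotrigine. Between the vehicles 1, 3 and 3 of the listed genes rose with injection vehicle in striatum, cortex and hippocampus, and 0 fell. That is 5.56%, 16.7% and 16.7% of the list, near the 5.72%, 18.5% and 16.5% of all genes called. Grm5, the metabotropic glutamate receptor that Homer1 binds, rose in all 3 regions, by 1.18 ± 0.20 (adjusted p = 0.000607), 0.92 ± 0.18 (adjusted p = 0.00072) and 0.86 ± 0.11 (adjusted p = 6.69e-06). In the LiCl cortex comparison, given as a description, Cdc42 was lower by 0.22 ± 0.05, and Itpr2, an inositol trisphosphate receptor, and the transcription factor Nfatc4 were higher by 0.36 ± 0.07 and 0.42 ± 0.08. The other 15 genes of the list were not called there, and all genes were called in 14.5% of cases.

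Baiap2 was higher with LiCl in the hippocampus on probe set 1374117_at, by 0.89 ± 0.17 (1.85-fold), and by much less on the other 2, which is again the contrast it was chosen from. Probe set 1374117_at read 7.39, 7.27, 7.49, 7.38 and 7.54 with LiCl, against 6.59, 6.49, 6.12, 6.56 and 6.85 with chow vehicle. The groups did not overlap, and the LiCl arrays also lay above all 10 hippocampus arrays of the injection arm. Probe set 1373081_at read 10.10, 10.18, 10.19, 10.15 and 10.23 with LiCl, against 10.0004, 9.82, 10.10, 10.05 and 10.11 with chow vehicle, a difference of 0.15 ± 0.06. For 1370074_at the LiCl values were 9.93, 9.88, 9.93, 9.81 and 9.96, against 9.78, 9.61, 9.81, 9.81 and 9.82 with chow vehicle, a difference of 0.14 ± 0.05. Both of these overlapped, although in each all 5 LiCl arrays lay above the chow vehicle mean.

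With Arc, 1374117_at made up the 2 members called in the LiCl hippocampus comparison, both higher, where 0.235% of all probe sets were called (0.135% higher); nothing is read from this count. Once the 4 hippocampus arrays with high choroid plexus genes were left out, 0 members were called, while the differences were no smaller, at 0.83 for Arc and 1.01 for 1374117_at. There was 1 such array of LiCl, 2 of injection vehicle and 1 of chow vehicle. The interquartile range of all log2 values was 3.56 to 3.63 in LiCl arrays, against 3.43 to 3.56 in chow vehicle arrays, and with it as a covariate 0 members were called, at 0.77 for Arc and 0.80 for 1374117_at. Leaving out single arrays moved the count between 0 and 2: Arc lost its call when any 1 of LiCl replicates 1, 3, 4 and 5 and chow vehicle replicates 1 to 4 was dropped, and 1374117_at when any 1 of LiCl replicates 1, 3 and 5 and chow vehicle replicates 1 to 3 was, with differences of 0.72 to 0.85 for Arc and 0.79 to 0.91 for 1374117_at.

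In the striatum 1374117_at read 8.54, 8.50, 8.75, 8.78 and 8.71 with LiCl, against 8.17, 8.48, 8.31, 8.15 and 8.17 with chow vehicle. The groups did not overlap, although their ends nearly met, and the difference of 0.40 ± 0.23 did not pass the test (adjusted p = 0.477). The fit pools the spread of 4 groups, and 2 of them held an array far below the others, lamotrigine replicate 2 (6.82) and injection vehicle replicate 4 (7.05), both among the arrays low in striatal markers. Without the 3 arrays low in these markers the difference was 0.37 (adjusted p = 0.165). In the cortex, one of the contrasts Baiap2 was chosen from, it read 7.03, 6.74, 7.34, 7.17 and 7.16 with LiCl, against 7.05, 7.06, 7.04, 6.90 and 6.70 with chow vehicle, an overlap with a difference of 0.14 ± 0.12.

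The Baiap2 probe set with the highest mean over all 60 arrays, 1373081_at, read 10.93, 10.88, 10.45, 11.19 and 10.9994 with LiCl, against 10.85, 11.01, 11.0009, 11.08 and 10.98 with chow vehicle in the striatum. In the cortex it read 10.21, 10.15, 10.15, 10.23 and 10.12 with LiCl, against 10.23, 10.36, 10.33, 10.19 and 10.29 with chow vehicle. The striatum groups overlapped widely, with LiCl replicate 3 again the lowest, and the cortex groups overlapped at their ends. Its differences were -0.10 ± 0.10 (adjusted p = 0.707) and -0.11 ± 0.06. Probe set 1370074_at read 10.64, 10.74, 10.39, 10.79 and 10.66 with LiCl, against 10.52, 10.63, 10.66, 10.70 and 10.55 with chow vehicle in the striatum and 9.97, 9.93, 9.93, 9.94 and 9.87 with LiCl, against 9.90, 10.03, 10.13, 9.95 and 10.08 with chow vehicle in the cortex, with overlap in both and differences of 0.03 ± 0.08 (adjusted p = 0.898) and -0.09 ± 0.05.

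Lamotrigine called no Baiap2 probe set. For 1374117_at the lamotrigine arrays read 8.04, 6.82, 7.83, 8.08 and 8.08 in the striatum, 7.25, 6.85, 7.13, 6.94 and 7.21 in the cortex and 6.69, 6.03, 6.87, 6.44 and 6.81 in the hippocampus. Injection vehicle arrays read 8.07, 8.45, 8.29, 7.05 and 8.09, then 7.05, 7.12, 6.89, 7.06 and 7.56, then 6.78, 6.97, 6.23, 6.08 and 6.78 in the same regions. All 3 pairs overlapped, with differences of -0.22 ± 0.23, -0.06 ± 0.12 and 0.00 ± 0.17 (adjusted p = 0.997, 0.972 and 0.999). Probe set 1373081_at read 10.73, 10.43, 10.65, 10.84 and 10.63 with lamotrigine, against 10.70, 10.78, 10.83, 10.61 and 10.74 with injection vehicle in the striatum. It read 10.06, 10.03, 10.01, 10.08 and 9.86 with lamotrigine, against 9.87, 10.18, 10.10, 9.97 and 10.14 with injection vehicle in the cortex and 9.83, 9.69, 9.86, 9.86 and 9.99 with lamotrigine, against 9.97, 9.98, 9.92, 9.75 and 9.84 with injection vehicle in the hippocampus. These overlapped as well, and for this probe set and 1370074_at every lamotrigine difference was between -0.08 and 0.04.

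Between the vehicles Baiap2 was slightly lower with injection vehicle where it was called. This did not hold for 1374117_at, which was called in no region. It differed by -0.27 ± 0.23 in the striatum, 0.19 ± 0.12 in the cortex and 0.05 ± 0.17 in the hippocampus (limma, adjusted p = 0.567, 0.31 and 0.877). Probe set 1373081_at fell in the cortex by 0.23 ± 0.06 (1.17-fold lower, adjusted p = 0.00765), with 9.87, 10.18, 10.10, 9.97 and 10.14 in injection vehicle arrays, against 10.23, 10.36, 10.33, 10.19 and 10.29 in chow vehicle arrays. These groups nearly met without overlap. Probe set 1370074_at fell in the hippocampus by 0.19 ± 0.05 (1.14-fold lower, adjusted p = 0.00908), with 9.58, 9.61, 9.61, 9.46 and 9.60 against 9.78, 9.61, 9.81, 9.81 and 9.82. Its chow vehicle replicate 2 lay within the injection vehicle range, and the call was lost once arrays with high choroid plexus genes were left out (-0.19, adjusted p = 0.0604). In the striatum 1373081_at did not overlap between the vehicles but missed the threshold (-0.25 ± 0.10, adjusted p = 0.137); it passed in the fit of all 60 arrays (adjusted p = 0.0175), without the arrays low in striatal markers (adjusted p = 0.0285) and without LiCl striatum replicate 3 alone (adjusted p = 0.0314).

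Among 31 measured actin regulators of spines (of 34 listed), limma called 0 for LiCl in the striatum and 0 for lamotrigine in every region, with 4 and with 1 (striatum), 1 (cortex) and 3 (hippocampus) at an unadjusted p under 0.05. The numbers over all 31042 probe sets were 3828 and 1193, 1799 and 3063. Between the vehicles 4, 10 and 10 of the 31 genes were called in striatum, cortex and hippocampus, in both directions, against 5.72%, 18.5% and 16.5% of all genes. Abi1, a part of the WAVE complex, rose with injection vehicle by 0.47 ± 0.06, 0.44 ± 0.05 and 0.45 ± 0.07 in the 3 regions (adjusted p = 3.01e-05, 2.64e-06 and 0.00015). Ppp1r9a (neurabin), which binds actin in spines, rose by 1.39 ± 0.14, 0.69 ± 0.14 and 0.52 ± 0.09 (adjusted p = 1.56e-06, 0.00157 and 0.000334). Described only, LiCl in the cortex had Pak3, a kinase that acts downstream of Cdc42 and Rac, lower by 0.42 ± 0.07, and 2 of the 31 genes called, both lower (6.45% of the list, against 14.5% of all genes).

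Regions were compared over 10 vehicle arrays each. All 9 members were higher in the cortex than in the hippocampus, where 42.3% of all probe sets were called (20.9% higher). In the striatum 7 were higher than in the hippocampus, where 50.7% were called (27.2% higher). Against the cortex 6 differed in the striatum, 3 up and 3 down, where 55.6% were called. At least 9 of the 10 arrays of the region named first lay on the called side of the other region's mean in every one of these 22 calls.

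Arc ranged in vehicle arrays from 8.26 to 9.22 (median 8.61) in the striatum, from 9.03 to 9.89 (median 9.43) in the cortex and from 8.24 to 8.72 (median 8.50) in the hippocampus. Cortex values lay above all hippocampus values, and 1 striatum array, that of animal 25, reached into the cortex range. Striatum minus cortex was -0.88 ± 0.10 (1.83-fold lower, adjusted p = 3.66e-09) and cortex minus hippocampus 0.99 ± 0.10 (1.99-fold, adjusted p = 8.35e-10). Striatum minus hippocampus was 0.12 ± 0.10 and not called (adjusted p = 0.327).

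The Homer1 probe sets had 2 patterns over regions. Probe sets 1368318_at, 1368319_a_at and 1370656_a_at were not called between striatum and cortex, with differences of 0.04 ± 0.04, -0.09 ± 0.09 and -0.03 ± 0.06 (adjusted p = 0.434, 0.368 and 0.662), and were lower in the hippocampus. Of these, 1368318_at ranged from 10.55 to 10.90 (median 10.77) in striatum, from 10.58 to 10.96 (median 10.69) in cortex and from 9.82 to 10.15 (median 9.96) in hippocampus arrays. The striatum and cortex ranges coincided and both lay clear of the hippocampus, with striatum minus hippocampus at 0.81 ± 0.04 (1.76-fold, adjusted p = 3.92e-16). By contrast 1370454_at and 1370997_at were highest in the cortex. Probe set 1370997_at ranged from 7.37 to 8.46 (median 8.29) in striatum, from 9.30 to 10.16 (median 9.74) in cortex and from 7.09 to 8.24 (median 7.77) in hippocampus arrays, and striatum minus cortex was -1.56 ± 0.13 (2.95-fold lower, adjusted p = 1.51e-11). For 1370454_at striatum minus cortex was -1.46 ± 0.10 (2.75-fold lower, adjusted p = 2.10e-13), with no overlap, and striatum minus hippocampus 0.09 ± 0.11 (adjusted p = 0.484).

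Within chow vehicle arrays alone, the striatum and hippocampus difference of 1370997_at was 0.31 and not called (adjusted p = 0.17), nor was it with the interquartile range of each array as a covariate (0.21, adjusted p = 0.513), and within injection vehicle arrays alone that of 1370454_at was 0.38 and called (adjusted p = 0.0425). The other region calls on Homer1 held in both arms taken apart.

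Baiap2 was highest in the striatum on all 3 probe sets. Probe set 1374117_at ranged from 7.05 to 8.48 (median 8.17) in striatum, from 6.70 to 7.56 (median 7.05) in cortex and from 6.08 to 6.97 (median 6.57) in hippocampus arrays. Only injection vehicle replicate 4, low in striatal markers, kept the striatum from standing clear of the cortex. Striatum minus cortex was 1.08 ± 0.12 for 1374117_at (2.11-fold, adjusted p = 7.96e-09), 0.69 ± 0.04 for 1373081_at (1.62-fold, adjusted p = 2.99e-15) and 0.62 ± 0.04 for 1370074_at (1.53-fold, adjusted p = 1.29e-14). For the last 2 the striatum did not overlap either of the other regions. Cortex minus hippocampus was smaller, at 0.50 ± 0.12, 0.21 ± 0.04 and 0.29 ± 0.04 (adjusted p = 0.00162, 9.97e-05 and 5.85e-07), with overlap on all 3, and for 1373081_at it missed the threshold within injection vehicle arrays alone (0.16, adjusted p = 0.051).

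**Figure D5:**
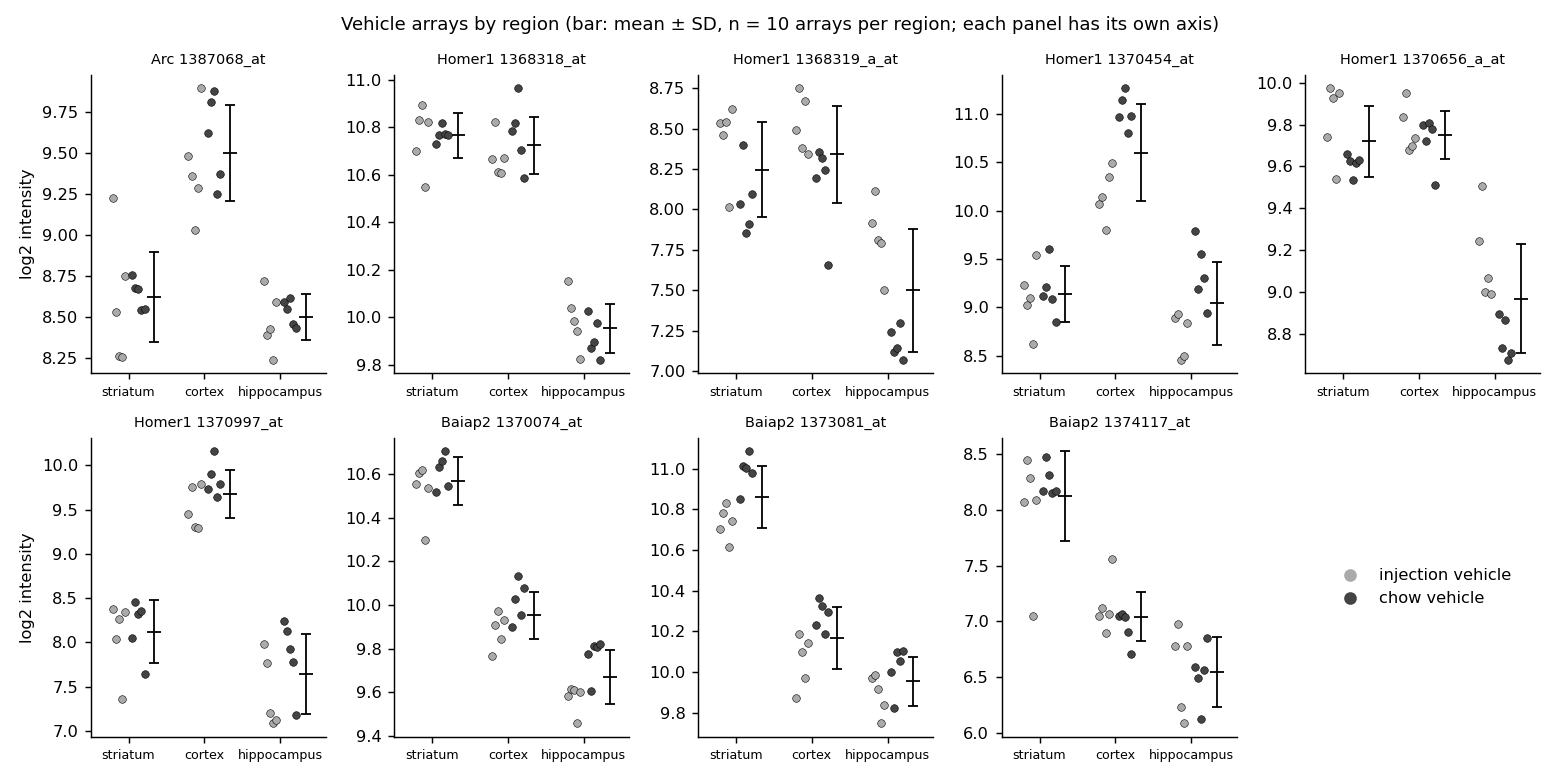
Log2 intensity of the 9 probe sets in vehicle arrays of the striatum, cortex and hippocampus, with light points for injection vehicle, dark points for chow vehicle and the mean ± SD of 10 arrays beside each region; each panel has its own axis. Arc, 1370454_at and 1370997_at peak in the cortex, the other 3 Homer1 probe sets are low in the hippocampus alone, and Baiap2 is highest in the striatum.

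After the group means were removed, members of 1 gene followed each other only in part over the 60 arrays. Deviations of Homer1 1368318_at and 1370656_a_at had r = 0.87, those of 1370454_at and 1370997_at r = 0.79, and those of 1368319_a_at and 1370454_at r = 0.49. Baiap2 1370074_at and 1373081_at had r = 0.82, but 1374117_at had r = 0.39 with each of them. Arc was closest to Homer1 1370997_at (r = 0.71) and 1370454_at (r = 0.53), while its r with the other 3 Homer1 probe sets was 0.24 to 0.36. These values describe arrays that share tissue, dissection and hybridization.

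Among 10144 other genes with a mean level of at least 6, the 3 most like Arc in these deviations were Nr4a1 (r = 0.89), Junb (r = 0.86) and Fos (r = 0.81), all of them immediate early transcription factors. For Homer1 1370997_at they were Nr4a3 (r = 0.78) and Nr4a1 (r = 0.75), nuclear receptors of the same family, and Irs2 (r = 0.74), an adaptor of the insulin receptor. For 1368318_at they were Cdyl2 (r = 0.81), Hsph1 (r = 0.77) and D430041D05Rikl (r = 0.77), and for Baiap2 1373081_at they were Abi2 (r = 0.76), a part of the WAVE complex, Tug1 (r = 0.74) and Dpy19l3 (r = 0.73). Most like 1374117_at were Mprip (r = 0.78), which binds the phosphatase of myosin, Bicdl1 (r = 0.76) and Kmt2d (r = 0.76).

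Immediate early genes as a list (31 measured of 34, without Arc and Homer1) were uncalled by limma for LiCl in the striatum and for lamotrigine in every region, with 8 and with 4 (striatum), 4 (cortex) and 6 (hippocampus) at an unadjusted p under 0.05. The numbers over all 31042 probe sets were 3828 and 1193, 1799 and 3063. The median difference of the list with lamotrigine was 0.06, 0.03 and 0.10 in striatum, cortex and hippocampus, against 0.02, 0.01 and -0.00346 over all genes. Described only, LiCl had 1 gene of the list called in the hippocampus, Inhba, a subunit of activin, higher by 0.52 ± 0.09, and 5 in the cortex, all lower, among them Ptgs2 (cyclooxygenase-2) by 0.76 ± 0.19, Fosb by 0.53 ± 0.14 and Bdnf, a growth factor of neurons, by 0.47 ± 0.10. The list was called in 3.23% and 16.1% of cases, against 0.309% and 14.5% of all genes, so its cortex share was near that of all genes. Between the vehicles 2, 6 and 3 genes of the list were called in striatum, cortex and hippocampus. These were 6.45%, 19.4% and 9.68% of the list, against 5.72%, 18.5% and 16.5% of all genes. All were lower with injection vehicle but Per1, which was higher in the cortex by 0.35 ± 0.09 (adjusted p = 0.00906). Dusp6, a phosphatase of ERK kinases, was lower in the same 3 regions, by 0.51 ± 0.13, 0.78 ± 0.14 and 0.67 ± 0.13 (adjusted p = 0.0216, 0.000298 and 0.00093).

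Among 19 measured spine scaffolds (of 20), limma called 0 for LiCl in the striatum and 0 for lamotrigine in every region, with 0 and with 0 (striatum), 1 (cortex) and 2 (hippocampus) at an unadjusted p under 0.05. The numbers over all 31042 probe sets were 3828 and 1193, 1799 and 3063. Described only, LiCl in the cortex had 1 scaffold higher, Nlgn2 by 0.39 ± 0.11, and 4 lower, among them Dlgap1, which joins Dlg proteins to Shank, by 0.28 ± 0.05 (26.3% of the list, against 14.5% of all genes). Between the vehicles 0, 4 and 4 were called in striatum, cortex and hippocampus (0%, 21.1% and 21.1% of the list, against 5.72%, 18.5% and 16.5% of all genes). Grip1, which binds AMPA receptors, was higher with injection vehicle in the cortex (0.37 ± 0.11, adjusted p = 0.0154) and hippocampus (0.52 ± 0.10, adjusted p = 0.000789), and Synpo, the synaptopodin of the spine apparatus, lower (-0.38 ± 0.08 and -0.36 ± 0.11, adjusted p = 0.00129 and 0.0283). Scaffolds differed by region too: striatum minus cortex was -2.35 ± 0.07 for Shank1, which binds Homer1 (adjusted p = 2.04e-23). In that comparison 15 of the 19 were called, against 61.5% of all genes.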

How the data were processed

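Total RNA of dissected rat brain tissue was hybridized as biotin-labelled cRNA to 60 Affymetrix arrays, 1 sample each. Per the submitters' processing notes the authors summarized the arrays by RMA in R 2.7.2; the deposited values are normalized intensities on a linear scale, and no source used here says whether they were normalized as 1 set or gives a scan date or other batch. The tests had been planned for log2 values, so log2 of each deposited intensity was taken first, with no offset. Of 31099 rows, 57 control probe sets were left out. Gene symbols came from the platform annotation: 20826 probe sets had 1 symbol, 436 several and 9780 none.

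Drug and vehicle comparisons were fitted with limma 3.58.1 (R 4.3.3) in each region, over its 4 groups, with an intensity trend. Regions were compared over 30 vehicle arrays, and the lamotrigine effect between regions over the injection arm, with the animal number as a random block (consensus correlations 0.0874 and 0.139). All p-values were adjusted by Benjamini-Hochberg over 31042 probe sets and called under 0.05. The scripts were first tested on simulated data.

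The members and gene lists were chosen with earlier results of these data known. Values in every array were to be printed for the brightest probe set of each gene and for called probe sets. Lists used the brightest probe set of each gene, and at most the 4 called genes of a list with the largest differences could be named. Likeness is Pearson's r of deviations from group means. Leaving out arrays high in choroid plexus genes or low in striatal markers was chosen after seeing the data. The number of arrays limits the precision of each value.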

Additional observations from a re-analysis of the deposited data

Results flagged for a closer look

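Of 108 groups of 5 arrays (9 probe sets in 12 groups), 7 held an array whose gap to its nearest neighbour took up more than 0.71 of the range of the group; about 1 group in 20 is expected to do so by chance. Homer1 1368319_a_at read 7.66 in chow vehicle cortex replicate 5, against 8.19 to 8.35 in the other 4 arrays. In injection vehicle striatum replicate 4, one of the arrays low in striatal markers, 3 probe sets stood low: Homer1 1368319_a_at at 8.01 (others 8.46 to 8.62), Baiap2 1370074_at at 10.30 (others 10.54 to 10.62) and Baiap2 1374117_at at 7.05 (others 8.07 to 8.45). Baiap2 1374117_at was also low in lamotrigine striatum replicate 2, at 6.82 against 7.83 to 8.08, another array low in those markers. Baiap2 1370074_at read 9.46 in injection vehicle hippocampus replicate 4 (others 9.58 to 9.61) and 9.61 in chow vehicle hippocampus replicate 2 (others 9.78 to 9.82).

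All 5 LiCl arrays of 2 Baiap2 probe sets lay above the chow vehicle mean in the hippocampus and below it in the cortex. For 1370074_at LiCl minus chow vehicle was 0.14 in the hippocampus and -0.092 in the cortex, and for 1373081_at it was 0.15 and -0.11. These are the contrasts Baiap2 was chosen from, and the difference between the regions was not tested. With quantile normalization the cortex differences were 0.011 for 1370074_at and -0.014 for 1373081_at. With the interquartile range as a covariate they were -0.0031 and -0.033, and the hippocampus difference of 1370074_at was 0.045. The opposite directions thus depend on the processing.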

How the results depend on the processing

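For LiCl against chow vehicle, the 2 members called in the hippocampus became 1 with quantile normalization, 1 in the fit of all 60 arrays and 0 with the interquartile range as a covariate, and the 4 in the cortex became 3, 3 and 0. In the hippocampus 0 were called once arrays with high choroid plexus genes were left out. For LiCl in the striatum the fit of all 60 arrays called 1 member in place of 0. Between the vehicles in the striatum 0 became 1 in that fit and 2 without the arrays low in striatal markers. Leaving out single arrays gave 0 to 2 called for LiCl in the hippocampus, 4 to 4 in the cortex and 0 to 0 in the striatum, and 0 to 1, 2 to 4 and 4 to 5 between the vehicles in striatum, cortex and hippocampus. Lamotrigine called 0 members under every alternative run, and striatum against cortex 6.

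No difference that was called changed its sign. Samples of the same replicate number did not deviate together between groups of a region (r from -0.54 to 0.23). A sample correlated best with its own replicate number in 10 of 90 cases, with arrays counted again in each comparison they enter. The replicate numbers therefore do not pair the samples of different groups. With the replicate block the members called were 0, 4 and 2 for LiCl in striatum, cortex and hippocampus, 0, 3 and 4 between the vehicles, 6, 7 and 9 between the regions and 0 for lamotrigine, as without it, while all probe sets called for LiCl in the hippocampus numbered 28 in place of 73. With 5 arrays a group, changes near the spread of dim or mixed-tissue probe sets could not be shown.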
